A study of Mus musculus with 2 samples.

Results

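The solute carrier families that move amino acids across cell membranes were compared between a pool of fast and a pool of slow muscle fibres of the mouse. Members were the genes whose symbols begin with Slc1a, Slc3a, Slc7a, Slc36a, Slc38a or Slc43a and whose RefSeq transcript is the named target of an array probe. The RefSeq table held 42 such transporter genes, and all 42 had at least 1 probe among the 23458 genes with a matched probe. The same prefixes also match 2 opposite-strand genes with a probe, Slc36a1os and Slc7a6os, which are not transporters and were kept out of the counts.

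Cells take up amino acids through carriers that differ in substrate and driving force. System L carriers exchange or let pass large neutral amino acids such as leucine, and 2 families provide them, the Slc7a light chains that pair with the Slc3a2 heavy chain and the Slc43a carriers that work alone. Systems A and N, of the Slc38a family, bring in small neutral amino acids and glutamine together with sodium, Slc1a carriers move glutamate or small neutral amino acids, and Slc36a carriers use protons. In skeletal muscle these carriers feed protein synthesis and the activation of the kinase mTORC1, and they govern the release of glutamine and alanine.

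RNA was pooled from single fibres of 8 male mice, 6 to 8 weeks old and heterozygous (G/+) for GFP-Myh7, an allele that marks the slow myosin with GFP and that both pools carry. The fast pool held 4447 fibres without GFP from the extensor digitorum longus (EDL), and the slow pool held 1659 fibres with GFP from the soleus. The tissue label of the slow pool names the EDL, whereas its source label and the protocol name the soleus, which was followed here. Muscle of origin and fibre type changed together, so the contributions of muscle and fibre type cannot be told apart. Each pool was hybridised to 1 array, so no difference below has a replicate or a test, and precision is limited by having 1 array each. In pooled RNA, fewer cells of a type and less RNA per cell cannot be told apart.

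A level below is the processed Cy3 signal of a probe divided by the 75th percentile of its array, and a difference is slow minus fast on the log2 scale, with the error that the scanner software assigns to the spots. That error had a median of 0.20 over all genes measured on both arrays, and the SD between repeated spots of 1 probe had a median of 0.05. Neither covers animals, dissection or labelling. A gene was taken as measured where its brightest probe was well above background, and one that was so on 1 array only has a bound, written as at least N-fold. The bound sets the bright level against the higher of the dim level and the lowest level well above background. Over all probes, that lowest level was 0.0395 on the fast and 0.0449 on the slow array. A bound is given without error. For members measured on 1 array, the software error of the measured difference ran from 0.46 to 1.48. Levels are compared between pools, not between genes, and the summed level of a marker list adds the levels of its genes within a pool.

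The pools matched their labels by myosin heavy chain. Myh7, the slow chain, was at 5.99 in fast and 1617 in slow fibres, and Myh4, the fastest chain, at 880.2 in fast and 0.295 in slow fibres. Of all spots, 52.3% on the fast and 50.9% on the slow array were well above background, and none was saturated. Markers of cells other than fibres differed too, though not all in 1 direction. In the fast pool 9 of 11 endothelial genes exceeded the slow pool by 2-fold or more (5 to 9 over other settings), with a summed level of 27.2 against 7.05, and so did 9 of 11 fibroblast genes (6 to 9), with a summed level of 169.3 against 42.4. Of all measured genes, 14.3% did so. All 11 of each list were measured on at least 1 array, and none was at 0. The erythrocyte list summed to 93.0 against 34.7 and the immune list to 16.5 against 4.72, although Ptprc, Adgre1 and Lyz2, which define blood cells and macrophages, were measured on neither array. The same held for Adipoq, Plin1 and Cidec of the 5 adipocyte genes, while Fabp4, known from capillary endothelium too, was at 18.1 against 7.86 and Lep at 0.257 against 0.297, and the list summed to 18.3 against 8.22. Schwann cell markers summed to 9.23 against 19.4, the other way round, although 4 of the 7 measured genes were at least 2-fold higher in the fast pool. Pmp22, at 4.47 against 17.5, and Mbp were at least 2-fold higher in the slow pool, but the other probes of Mbp were well above background in the fast pool only. Tendon markers summed to 18.6 against 24.3, although 3 of 5 were at least 2-fold higher in the fast pool. Satellite cell markers summed to 5.28 against 5.80, of which Cdh15 alone held 4.53 and 5.47. Of the 3 measured, 2 were above 0 but within 2-fold, and Vcam1 was 3.28-fold higher in the fast pool. Myf5 and Calcr were measured on neither array. Smooth muscle and pericyte markers summed to 777.7 against 705.1, of which Acta2 alone held 764.7 and 698.5. Of these 8 genes 7 were below 0, with a median difference of -0.78. At least 2-fold higher were 3 in the fast pool and 1 in the slow pool. Markers of the fibres themselves summed to 2996 against 2156, with a median difference of -0.58. Members higher in the fast pool share the direction of the endothelial and fibroblast markers by their selection alone. The part of these cells in the values below was not tested.

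Of the 42 members, 31 were measured on at least 1 array, 24 of them on both, 4 in the fast pool only and 3 in the slow pool only. Slow fibres exceeded fast fibres by 2-fold or more for 3 of the 31 (9.68%), a rule that 10.7% of all 14644 genes so measured passed. The reverse held for 9 (29.0%), against 14.3% of all genes, and either direction for 12 (38.7%), against 25.1%. The share in slow fibres is near that of all genes. The larger share in fast fibres was not tested and is a description of these members. The median difference of the 24 members measured on both arrays was -0.04, with 12 above and 12 below 0 and an SD over members of 1.25, and that of all 12846 genes so measured was 0.05, with an SD of 1.09. With bounds included, the members' median was -0.08. Under spike-in scaling, which adds 0.42 to each difference measured on both arrays, 6 members passed 2-fold towards slow and 5 towards fast fibres, and in the authors' deposited value table, which lowers the median of all genes by 0.11, the counts were 1 and 9. Under normexp background correction, with quantile or 75th percentile scaling, they were 2 and 4. Over all genes, slow fibres held 42.8% of those past 2-fold in the main scaling, 70.5% under spike-in scaling and 36.8% in the authors' table. Other Slc genes, outside these families and the mitochondrial Slc25 carriers, had 160 genes measured, of which 20 (12.5%) passed 2-fold towards slow and 23 (14.4%) towards fast fibres.

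**Figure D1:**
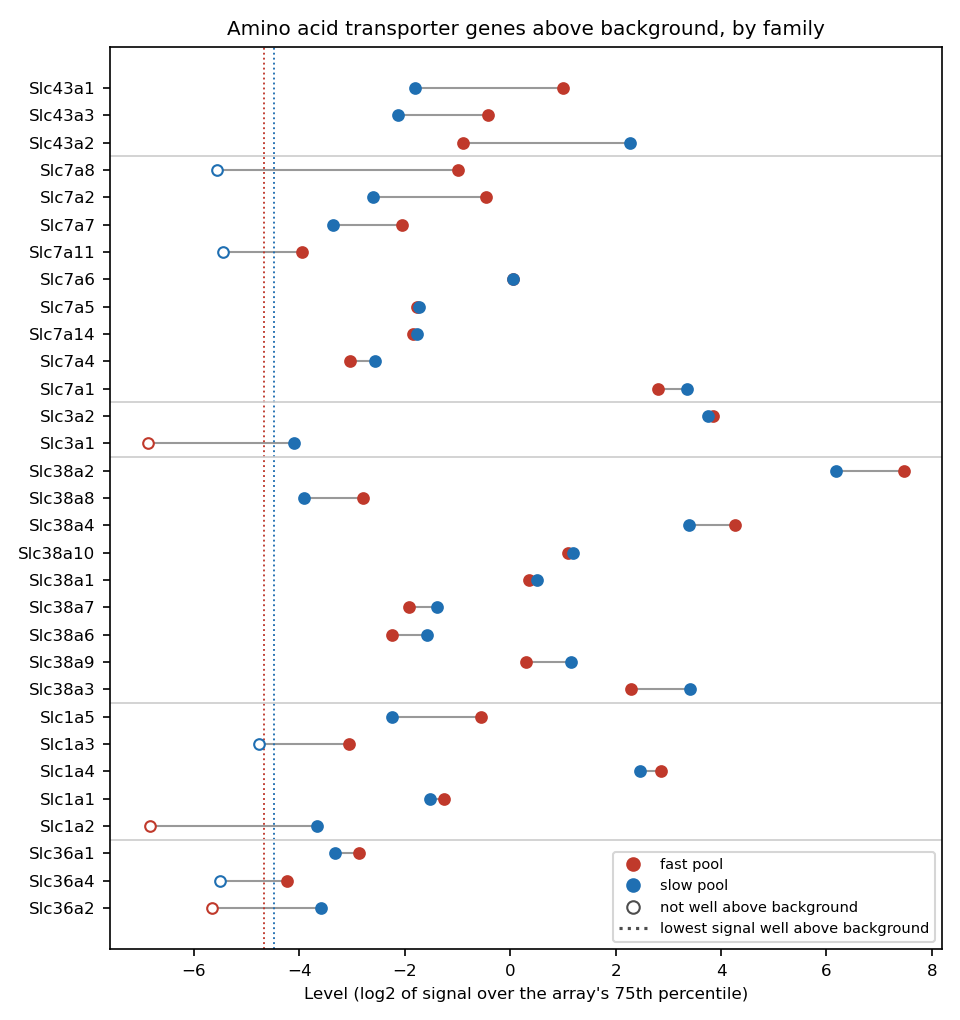
Levels of the 31 measured transporters in the fast pool (red) and the slow pool (blue), as log2 of the signal over the 75th percentile of the array, grouped by family. Open circles are not well above background and dotted lines mark the lowest level well above background. Slc7a8 falls from -0.99 to below the line, and Slc43a2 runs opposite to Slc43a1 and Slc43a3.

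**Figure D2:**
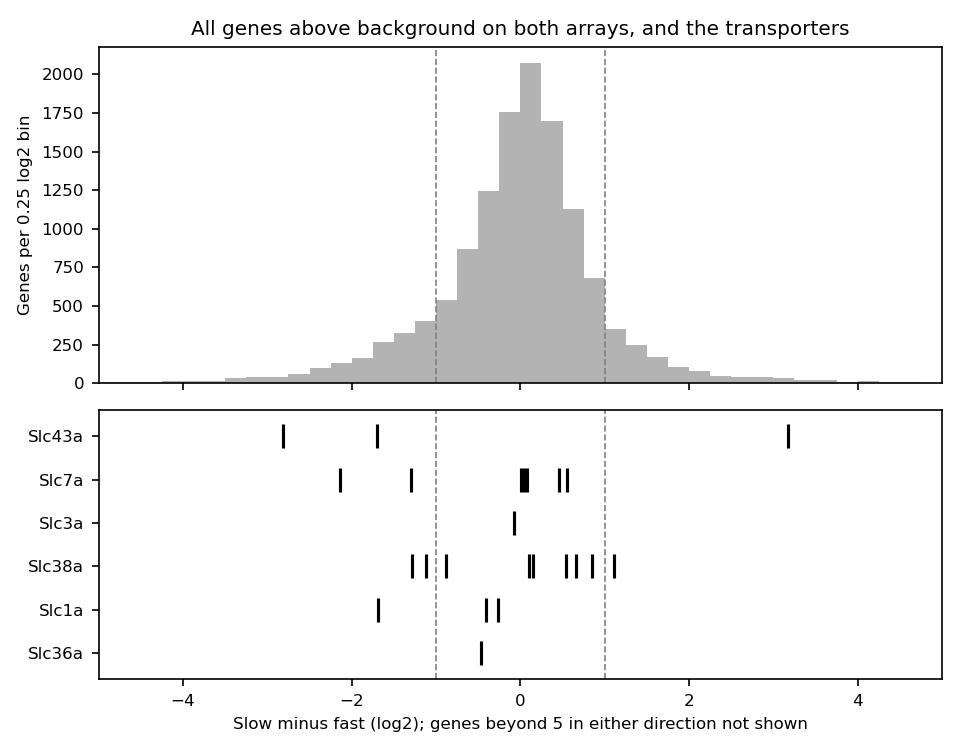
The upper panel counts all 12846 genes measured on both arrays by their slow minus fast log2 difference, and ticks in the lower panel are the 24 transporters measured on both arrays, by family. Dashed lines mark 2-fold. All 3 Slc43a genes lie outside the lines, while most Slc7a and Slc38a genes lie inside.

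The Slc43a family parted most widely, with all 3 members past 2-fold and in opposite directions. Of all measured genes, 25.1% were past 2-fold. Slc43a2, which encodes LAT4, a carrier that lets large neutral amino acids pass without sodium, was at 0.537 in fast and 4.82 in slow fibres. That is 8.99-fold higher in slow fibres, a difference of 3.17 ± 0.21 (software error). Slc43a1, which encodes LAT3, a carrier of the same kind of substrates, stood at 2.01 in fast and 0.285 in slow fibres. It was 7.05-fold higher in fast fibres, a difference of -2.82 ± 0.21. Each has a second probe measured on both arrays that gave the same direction at a smaller size. For Slc43a2 it gave 1.74, and for Slc43a1 -1.54. Slc43a3, their relative by sequence, encodes a carrier of purine nucleobases rather than amino acids. Its level was 0.749 in fast and 0.230 in slow fibres, 3.26-fold higher in fast fibres, a difference of -1.70 ± 0.22 that is also the median of the family. Slc43a1 and Slc43a3 lie close together in the RefSeq gene order, with 1 protein-coding gene between them.

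The windows of 250 bases before the start sites of Slc43a1 and Slc43a2 are shown because these genes carry the widest differences among members measured on both arrays, in opposite directions. They come from RefSeq, build GRCm38.p6, and are written 5′ to 3′ on the strand of the gene. The Slc43a1 window is chr2:84840073-84840322 on the plus strand. Those of Slc43a2, which has start sites in 2 windows, are chr11:75531444-75531693 and chr11:75531862-75532111, also on the plus strand. No letters are in capitals, since the motif named further on was not found in them.
Slc43a1: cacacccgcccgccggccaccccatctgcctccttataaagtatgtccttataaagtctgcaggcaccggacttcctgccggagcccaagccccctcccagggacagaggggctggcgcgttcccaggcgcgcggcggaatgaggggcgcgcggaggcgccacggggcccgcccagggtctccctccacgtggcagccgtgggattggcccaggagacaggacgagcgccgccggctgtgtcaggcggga
Slc43a2, first start site: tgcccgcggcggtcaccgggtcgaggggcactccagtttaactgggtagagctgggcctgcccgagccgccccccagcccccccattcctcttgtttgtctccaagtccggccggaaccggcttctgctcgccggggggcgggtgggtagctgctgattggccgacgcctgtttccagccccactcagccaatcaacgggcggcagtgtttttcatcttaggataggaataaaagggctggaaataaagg
Slc43a2, second start site: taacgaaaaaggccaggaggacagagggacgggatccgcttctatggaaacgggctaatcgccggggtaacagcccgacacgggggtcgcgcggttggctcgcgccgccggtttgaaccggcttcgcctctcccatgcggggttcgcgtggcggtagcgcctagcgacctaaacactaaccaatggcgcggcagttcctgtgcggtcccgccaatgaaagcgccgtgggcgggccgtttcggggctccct
All 3 are rich in G and C, at 70.8% for Slc43a1 and 62.8% and 65.6% for Slc43a2, where the median of all 32851 promoter windows was 52.4%. They hold 24, 17 and 32 CG pairs, against a median of 6.

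Light chains of the Slc7a family that pair with a heavy chain did not move together. Slc7a8, which encodes LAT2, a light chain for large and small neutral amino acids, was at 0.503 in the fast pool and not well above background in the slow pool. Fast fibres exceeded slow fibres by at least 11.2-fold, the widest difference of any member in this scaling. Neither array showed its other probe well above background. Slc7a5, which encodes LAT1, the leucine-carrying light chain of growing cells, was at 0.2922 and 0.3002, a difference of 0.04 ± 0.22. Slc3a2, the heavy chain CD98 that these light chains need to reach the surface, was at 14.3 in fast and 13.5 in slow fibres by its brightest probe, a difference of -0.08 ± 0.20. A second Slc3a2 probe, listed under another RefSeq transcript, was at 12.1 and 4.40, which is 2.75-fold higher in fast fibres. The heavy chain therefore lay within 2-fold by 1 probe and beyond it by the other. Slc3a1, the heavy chain of the kidney and gut system for cystine and basic amino acids, was well above background in the slow pool only, at 0.0584, and at least 1.48-fold higher there. Slc7a9, its light chain in those organs, was measured on neither array.

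Exchangers of basic for neutral amino acids divided. Slc7a7, which encodes y+LAT1, was at 0.241 in fast and 0.0979 in slow fibres, 2.46-fold higher in fast fibres, a difference of -1.30 ± 0.27. Its close relative Slc7a6, which encodes y+LAT2, was at 1.03 and 1.04, a difference of 0.01 ± 0.20, with 0.40 by its second probe. Slc7a11, the cystine-glutamate exchanger xCT that supplies cysteine for glutathione, was well above background in the fast pool only, at 0.0651, and at least 1.45-fold higher there. On neither array did its other probe pass background.

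Carriers of basic amino acids that work without a heavy chain also divided. Slc7a2, which encodes CAT-2, a carrier of arginine and lysine, was at 0.727 in fast and 0.164 in slow fibres. This is 4.42-fold higher in fast fibres, a difference of -2.14 ± 0.22. Slc7a1, which encodes CAT-1, the widespread carrier of arginine, was at 6.95 in fast and 10.2 in slow fibres, a difference of 0.55 ± 0.20. The related Slc7a4 and Slc7a14, of less settled function, differed by 0.46 ± 0.25 and 0.07 ± 0.21. Across the family, 3 of 9 measured members (33.3%) passed 2-fold towards fast fibres, against 14.3% of all genes. Towards slow fibres it was 0, against 10.7%. These shares of 9 members were not tested. The median of the 7 seen on both arrays was 0.04. The members Slc7a3, Slc7a10, Slc7a12, Slc7a13 and Slc7a15 were, like Slc7a9, measured on neither array.

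**Figure D3:**
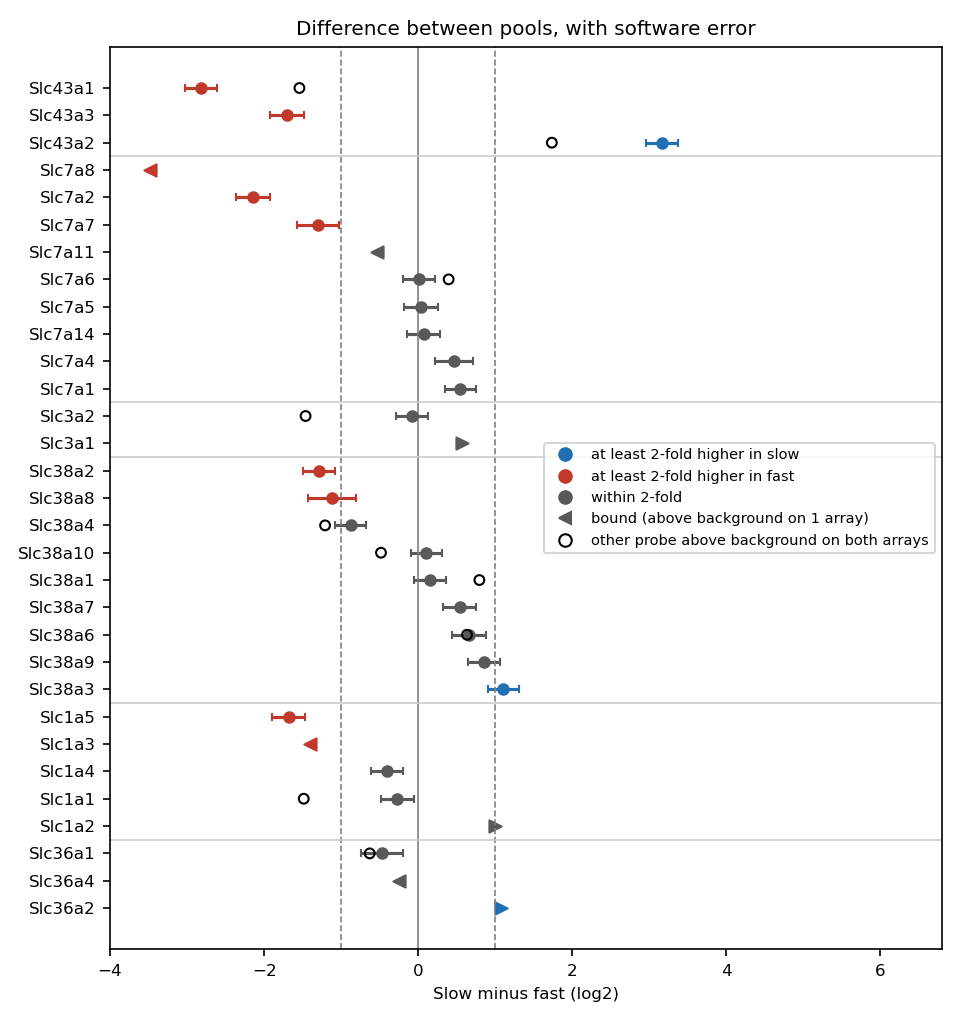
Slow minus fast log2 difference of each measured transporter, with the software error as bars. Triangles are bounds for genes well above background on 1 array, open circles are other probes of the same gene measured on both arrays, and dashed lines mark 2-fold. Of the 12 genes past 2-fold, 9 lie on the fast side, and the open circles of Slc3a2, Slc1a1 and Slc38a4 lie beyond 2-fold where the chosen probes do not.

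In the Slc38a family 9 of 11 members were measured, all 9 on both arrays, with a median difference of 0.15 and 6 of 9 above 0. Of all 12846 genes so measured, 6801 were above 0. System A was represented by 3 members that are neighbours in the RefSeq gene order, with no other protein-coding gene between them. Slc38a2, which encodes SNAT2, a carrier of alanine and glutamine that cells raise when amino acids are short, was at 177.9 in fast and 72.9 in slow fibres. It was 2.44-fold higher in fast fibres, a difference of -1.29 ± 0.20. Slc38a4, which encodes SNAT4, was at 19.3 and 10.5, a difference of -0.88 ± 0.20, within 2-fold, but -1.21 by its second probe, or 2.31-fold higher in fast fibres. Slc38a1, which encodes SNAT1, was at 1.28 and 1.42, a difference of 0.15 ± 0.20, with 0.79 by a second probe measured on both arrays. Its dimmest probe was well above background in the fast pool only. The 3 neighbours thus did not share 1 difference.

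Of system N, 1 gene was measured. Slc38a3, which encodes SNAT3, a carrier of glutamine, histidine and asparagine that can run in both directions, was at 4.92 in fast and 10.6 in slow fibres. That is 2.15-fold higher in slow fibres, a difference of 1.11 ± 0.20, and 0.996, within 2-fold, in the authors' deposited table. Slc38a5, the other system N gene, was measured on neither array, nor was Slc38a11. Slc38a9, the lysosomal arginine sensor that signals to mTORC1, was at 1.23 in fast and 2.22 in slow fibres, a difference of 0.85 ± 0.20 within 2-fold. Slc38a7, a lysosomal glutamine carrier, differed by 0.54 ± 0.22, and the less studied Slc38a6 by 0.66 ± 0.22, with 0.63 by a second probe, while its dimmest probe was well above background in the fast pool only. Slc38a10 differed by 0.11 ± 0.20, and its second probe on both arrays pointed the other way, at -0.48. Slc38a8 was at 0.145 in fast and 0.0666 in slow fibres, 2.17-fold higher in fast fibres, a difference of -1.12 ± 0.31, while the other probe of the gene was measured on neither array.

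Carriers of the Slc1a family fall into those for glutamate and those for small neutral amino acids. Slc1a5, which encodes ASCT2, a sodium-dependent exchanger of glutamine, was at 0.680 in fast and 0.212 in slow fibres. This is 3.21-fold higher in fast fibres, a difference of -1.68 ± 0.22. Slc1a4, which encodes ASCT1, a carrier of alanine, serine and cysteine, was at 7.25 and 5.48, a difference of -0.41 ± 0.20. Slc1a1, the glutamate carrier EAAC1, was at 0.421 and 0.349, a difference of -0.27 ± 0.21, but its second probe, at 0.389 and 0.139, gave -1.49, or 2.80-fold higher in fast fibres. Slc1a3 and Slc1a2, the glutamate carriers known from glia, were each measured on 1 array, and on opposite ones. Slc1a3 was at 0.119 in the fast pool and at least 2.65-fold higher there, and Slc1a2 was at 0.0788 in the slow pool and at least 1.996-fold higher there, just short of the 2-fold rule in this scaling. All 3 members measured on both arrays were below 0, with a median of -0.41, as were 6045 of all 12846 genes so measured. Slc1a6 and Slc1a7 were measured on neither array.

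Of the proton-coupled Slc36a carriers 3 of 4 were measured, 1 of them on both arrays. Slc36a2, which encodes PAT2, a carrier of glycine and proline, was at 0.0831 in the slow pool and at least 2.11-fold higher there, just past the rule. The software error of its measured log2 difference was 0.81. Slc36a1, the lysosomal PAT1, was at 0.138 in fast and 0.0996 in slow fibres, a difference of -0.47 ± 0.27, with -0.63 by its second probe. Slc36a4 was well above background in the fast pool only and at least 1.19-fold higher there, and Slc36a3 was measured on neither array. Slc36a1, Slc36a2 and Slc36a3 are neighbours in the RefSeq gene order, and Slc36a1 and Slc36a2 lay on opposite sides of 0.

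Several probes measured on both arrays were available for 10 members, and for 4 of them, Slc1a1, Slc3a2, Slc43a1 and Slc43a2, the probes differed by more than 1 on the log2 scale. For Slc43a1 and Slc43a2 all probes stayed past 2-fold, and among the 10 only Slc38a10 had probes that differed in sign. Of all 42 members, 25 have 1 probe each, and some of these were measured on neither array. Among the 25 are the called Slc7a2, Slc7a7, Slc38a2, Slc38a3, Slc43a3, Slc1a3, Slc1a5 and Slc36a2. The called Slc7a8 and Slc38a8 also rest on 1 probe, since the other was well above background on neither array.

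Over 8 other settings of scaling and background correction, all 12 members past 2-fold kept their direction. That was largely fixed in advance and does not measure stability. The bounds of Slc7a8, Slc1a3 and Slc36a2 are cut at 0, and the largest shift over all genes, 0.42, cannot reverse a 2-fold difference. Of the 12, 4 stayed past 2-fold in all 8, namely Slc43a2 at 2.51 to 3.59, Slc43a1 at -2.93 to -1.91, Slc7a2 at -2.25 to -1.11 and Slc7a8 at bounds from -3.59 to -1.27. Normexp, which adds an offset and so shrinks differences of dim probes, gave the value nearest to 0 for each of them. Under normexp Slc43a3 reached -0.86 and Slc1a5 -0.92, both within 2-fold, though past it under the 6 scalings that keep the background correction. The remaining 6 calls rest on the scaling as well. Spike-in scaling took Slc38a2 to -0.87, Slc7a7 to -0.88, Slc1a3 to -0.99 and Slc38a8 to -0.70, and under normexp the last 3 came as near to 0 as -0.40, -0.35 and -0.38. The authors' deposited value table put Slc38a3 at 0.996 and the bound of Slc36a2 at 0.965, and normexp put that bound at 0.20. Spike-in scaling brought Slc1a2, Slc38a6 and Slc38a9 past 2-fold in slow fibres, at 1.42, 1.08 and 1.27. Slc1a2 was past 2-fold in 4 of the 6 scalings, under median, quantile and loess scaling at 1.04, 1.02 and 1.02. Among members measured on both arrays, 7 changed sign over these settings, all of them within 2-fold in every setting, namely Slc1a1, Slc1a4, Slc3a2, Slc7a5, Slc7a6, Slc7a14 and Slc38a10.

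**Figure D4:**
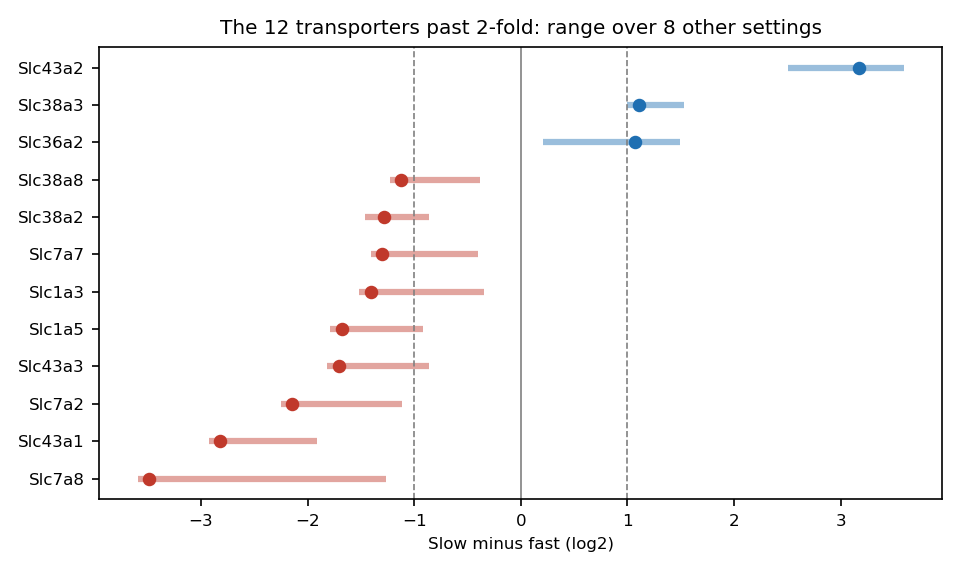
The 12 transporters past 2-fold, with the reported slow minus fast log2 difference as a point and the lowest to highest value over 8 other settings as a bar. For Slc7a8, Slc1a3 and Slc36a2 the values are bounds. Dashed lines mark 2-fold, and the bars of Slc43a2, Slc43a1, Slc7a2 and Slc7a8 stay outside them.

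Carriers act beside a sensing and response machinery. Of 36 measured genes that link amino acids to mTORC1, 3 passed 2-fold towards slow fibres (1 to 6 over other settings), 1 towards fast fibres and 32 lay within it. That is 11.1% past 2-fold, against 25.1% of all genes, with a median of 0.16 against 0.05. Fnip2, a partner of folliculin, was at 0.297 in fast and 1.03 in slow fibres, 3.48-fold higher in slow fibres. Rragb, a Rag GTPase, was measured in the slow pool only and at least 2.02-fold higher there, with a bound as low as 0.09 on the log2 scale in another setting. Sesn1, of the sestrin family that senses leucine and named after its values were seen, was at 8.41 and 17.0, 2.02-fold higher in slow fibres but within 2-fold at 0.90 in another setting. Rragc, another Rag GTPase, was at 10.5 and 5.10, 2.07-fold higher in fast fibres and at -0.62 under spike-in scaling.

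Genes of the response to amino acid shortage through the transcription factor ATF4 numbered 25, all measured on both arrays. Of these, 5 (20.0%) passed 2-fold towards slow fibres, against 10.7% of all genes, and 3 (2 to 4 over other settings) towards fast fibres, against 14.3%. Their median was 0.04. Gdf15, a stress-induced hormone, was at 2.37 in fast and 12.3 in slow fibres, 5.18-fold higher in slow fibres. Cth, which makes cysteine from cystathionine, was 4.61-fold higher there. Gpt2, the mitochondrial alanine aminotransferase, was at 19.5 in fast and 1.36 in slow fibres, 14.4-fold higher in fast fibres, and -4.10 by its other probe. Asns, which makes asparagine, was at 2.07 and 0.587, 3.53-fold higher in fast fibres. Slc7a11 and Slc38a2 are among the carriers known as targets of the same response. They are no part of this list, are described above and do not stand for such carriers as a set.

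The window before the start of Slc7a11 is shown because it holds letters of the C/EBP-ATF response element, searched as TGATGNAAN on both strands. It is chr3:50443614-50443863 on the minus strand of GRCm38.p6, from RefSeq, and capitals mark the matches.
Slc7a11: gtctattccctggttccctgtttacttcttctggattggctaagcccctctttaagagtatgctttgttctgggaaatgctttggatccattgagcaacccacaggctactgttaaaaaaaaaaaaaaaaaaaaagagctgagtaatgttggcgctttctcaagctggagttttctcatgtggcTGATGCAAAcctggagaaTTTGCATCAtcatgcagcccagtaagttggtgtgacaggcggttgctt
The matches start 66 and 48 bases before the gene start and lie on opposite strands. In all, 31 members had 42 windows, and 3 of these (7.14%) held the motif, 1 of Slc7a11 and 2 of Slc7a7, while 3.44% of all 32851 windows held it. Slc7a7 was past 2-fold in fast fibres and Slc7a11 had only a bound within 2-fold. A match is a description of these letters.

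Enzymes of glutamine, glutamate and branched-chain amino acids had 21 genes measured, of which 5 passed 2-fold towards fast and 1 towards slow fibres (3 to 6 and 1 to 2 over other settings), with a median of -0.18. The 28.6% past 2-fold in either direction is near the 25.1% of all genes. Gpt2 and Asns, given above, had the lowest differences, and Prodh, the first enzyme of proline breakdown, was at 0.768 in fast and 2.83 in slow fibres, 3.69-fold higher in slow fibres. Glul, glutamine synthetase, named after its values were seen because Slc38a3 and Slc38a2 carry its product, was at 38.7 and 12.9. Its difference was -1.58, past 2-fold towards fast fibres, with -1.33 and -1.36 by its other probes. Amino acid carriers outside the families had 12 of 22 genes measured, with 2 past 2-fold towards slow fibres (0 to 2 over other settings), 1 towards fast fibres and a median of -0.37. These 3 of 12 are near the 25.1% of all genes. Slc16a10, a carrier of aromatic amino acids, was at 1.28 and 0.387, 3.31-fold higher in fast fibres. Slc6a18, a neutral amino acid carrier of the kidney, was measured in the slow pool only and at least 5.73-fold higher there, with a bound of 0.22 on the log2 scale by its other probe. Slc17a8, a vesicular glutamate carrier, was also measured in the slow pool only, at least 3.31-fold higher.

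**Figure D5:**
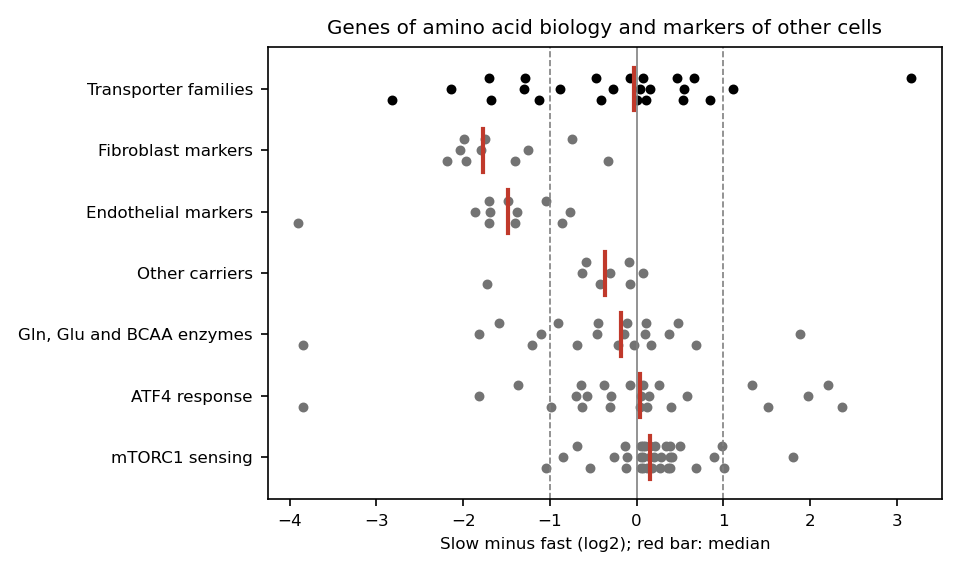
Slow minus fast log2 differences of the genes measured on both arrays in the transporter families and in lists of related genes and of markers of other cells, with the median of each as a red bar. Dashed lines mark 2-fold. The transporters centre at -0.04, while the endothelial and fibroblast markers centre at -1.48 and -1.77.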

How the data were processed

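Total RNA (0.1 µg) was labelled with Cy3, per the labels' protocols. Agilent Feature Extraction 12.0.3.1, named in the submitters' processing notes, made the deposited scanner files. They hold linear spot intensities, background-subtracted and detrended within each array, per the file headers, with a software error and 0 or 1 flags, which are no measurements. The authors' deposited value table equals these intensities times 2.83 (fast) and 2.45 (slow), with column medians of 30.1 and 27.1, no log and no centring. The target of that scaling is unknown.

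Control spots and 159 spots with an outlier flag were left out, leaving 56596 probes. Of these, 33763 (59.7%) matched a RefSeq gene by accession without version (GRCm38.p6 table, used for names because the array design refers to mm9). The probe with the highest mean processed signal stood for each gene. Values were log2 intensities minus the 75th percentile of each array, called at 2-fold. All measured members are named, and from each other list up to 4 genes past 2-fold, the 2 highest and the 2 lowest differences. Members and lists were chosen with earlier results of these data known. Alternatives were median scaling, the 75th percentile over probes above background, quantile, loess (span 0.3), 8 of 10 spike-in controls, normexp (offset 50, on median signals), the authors' table, filters and probe rules. Keeping opposite-strand genes and 2 further probe rules were chosen after seeing the data. The procedure was tested on simulated data with the same background flags on both arrays, so the rule for bounds was not covered. The simulated noise was smaller than the software error. R 4.3.3, limma 3.58.1, Python 3.11.15 and pandas 2.3.3 were used. Protein sequences were not used here.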

Additional observations from a re-analysis of the deposited data

How the results depend on the processing

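Of 406 values of single members under the alternatives, 334 moved by less than the software error of the same member and 72 by more. That error is wide for members measured on 1 array. Of the values past 2-fold, 0 changed sign, but bounds are cut at 0 and the scalings shift too little to reverse such values. The 334 do not measure stability, since many had little or no room to move. Removing or tightening the filter on dim probes keeps members measured on both arrays at their main values by construction. Kept outlier flags and the brightest probe above background returned the main values. For members measured on both arrays, median scaling added 0.04, the 75th percentile over probes above background -0.02 and the authors' scaling about -0.11. The smallest software error of these members was 0.204. Spike-in scaling put 6 members past 2-fold towards slow and 5 towards fast fibres, with a member median of 0.39, and family medians of 0.018 for Slc1a, 0.46 for Slc7a, 0.57 for Slc38a and -1.28 for Slc43a. Normexp left 4 members past 2-fold towards fast fibres, both after quantile normalization and after 75th percentile scaling, with Slc43a medians of -0.86 and -0.90. Over all genes it left 768 towards slow and 1007 towards fast fibres in the former and 781 and 1003 in the latter, from 1570 and 2099. The same all-gene counts were 3134 and 1312 under spike-in scaling, 2494 and 3102 with no filter and 540 and 531 by second probes. Members past 2-fold towards slow fibres numbered 1 in the authors' table and 5 with no filter on dim probes. Size rules of 1.5-fold and 3-fold gave 6 and 1 in slow fibres, and the 3-fold rule 5 in fast fibres. The median over probes gave -0.30 for all members and -0.88 for Slc1a. Using the second brightest probe, where 10 members had one above background, left 1 member past 2-fold towards slow and 4 towards fast fibres, their median being -0.56. This alternative tests fewer genes by its construction, and the causes of the other shifts were not tested. Median scaling, the 75th percentile over probes above background, quantile, loess and kept outlier flags changed none of these counts by more than 1.5 times. No paired analysis was possible because each group is 1 pool. Signal over background limits the 7 members measured on 1 array.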
